A study of Homo sapiens with 6 samples.

Results

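Cytokine receptor chains and the JAK-STAT pathway behind them, with its SOCS, PIAS and phosphatase brakes, were followed in MOLM-13, a human acute myeloid leukaemia cell line with the MLL-AF9 translocation, after lentiviral knockdown of LAMP5. The genes were chosen by symbol, in a list of 41 drawn up with earlier results of these data known. Of these, 40 had a row among the 39771 gene identifiers of the deposited table. No row was matched to SOCS7, which is not analysed here. Of the 40, 36 reached 1 TPM (an abundance corrected for transcript length, on a scale with the same total in each library) in at least 2 libraries and were tested. The 6 libraries were made from total RNA of puromycin-selected cells that carried a non-targeting short hairpin RNA (shNT, 2 libraries) or a hairpin against LAMP5 (shLAMP5, 4 libraries), so that all cells had undergone transduction and selection. MOLM-13 is 1 cell line, and the hairpin and harvest time of each shLAMP5 library were not given in the sources used here. No label says that the replicates were separate cultures, so p-values cover only the spread between libraries, which could be technical.

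Interleukins and interferons bind receptors built from 2 or more chains, whose tails hold Janus kinases (JAK1, JAK2, JAK3 and TYK2). Ligand binding brings the kinases together; they phosphorylate the receptor and then STAT proteins, which pair, enter the nucleus and bind DNA at sites of the form TTCNNNGAA. SOCS proteins, many of them made in response to STATs, block the kinases or the receptor, PIAS proteins restrain STATs in the nucleus, and tyrosine phosphatases such as PTPN1, PTPN2 and PTPN6 remove the phosphate. In myeloid leukaemia the pathway is known as a route of growth and survival signals, and the internal tandem duplication of the kinase FLT3 that MOLM-13 is known to carry signals through STAT5.

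The STAT site was looked for in the 250 bases before each start site in RefSeq's promoter table (build GRCh38.p14), where 35 of the 41 genes had an entry, with 53 start sites between them. The letters TTCNNNGAA read the same on both strands, so each match counts for both. They were found before 1 of the 53 start sites (1.89%), that of IL15RA, and before 6.57% of all 35116 start sites in the table. Of 111 start sites of 70 other pathway genes, 17 had a match (15.3%). These genes were ligands, other receptor chains, further JAK-STAT components and STAT target genes. The last were listed because they are STAT targets, so the 70 are not an unselected set. With 1 more base between TTC and GAA, a spacing that STAT6 is known to bind, a match was again found for 1 of the listed genes, STAT5A, and before 5.38% of all start sites. The windows are short, and a match describes letters only. The stretches below are shown because IL15RA is the 1 listed gene with a match, CISH (a SOCS family member and known STAT5 target) holds the most matches, IRF9 encodes a DNA-binding partner of STAT2, and FCER2 (CD23) is a known target of IL-4 and STAT6. Each is written 5′ to 3′ on the gene's strand with matches in capitals.
IL15RA, chr10:5978145-5978193, minus strand: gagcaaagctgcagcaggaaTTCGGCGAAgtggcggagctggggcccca
CISH, chr3:50611858-50612024, minus strand: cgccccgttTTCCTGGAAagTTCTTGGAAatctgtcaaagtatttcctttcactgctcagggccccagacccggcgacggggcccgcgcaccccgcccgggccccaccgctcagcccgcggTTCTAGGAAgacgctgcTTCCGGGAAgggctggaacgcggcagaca
IRF9, chr14:24161182-24161230, plus strand: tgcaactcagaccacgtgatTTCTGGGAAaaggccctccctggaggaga
FCER2, chr19:7699598-7699646, minus strand: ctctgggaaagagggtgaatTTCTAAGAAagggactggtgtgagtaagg

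LAMP5 checked the labels: it measured 170 and 282 TPM in shNT 1 and 2 and between 65.6 and 86.7 TPM in the shLAMP5 libraries, with -1.54 as log2 fold change (adjusted p by limma 0.252; exact two-sided permutation p 0.0667, the smallest that 15 splits allow). Every log2 fold change here is the shLAMP5 mean less the shNT mean of log2(TPM + 1), a scale that shrinks the differences of low genes. Of the myeloid markers, 8 of 8 were at or above 1 TPM in every library. Of 9 T and NK cell markers matched, 6 stayed below 1 TPM in all libraries, CD3E, CD2 and CD5 among them, while CD3D (1.64 to 8.41 TPM), GNLY and NKG7 did not. B cell, red cell, platelet and fibroblast markers were below 1 TPM throughout except CD79A and COL1A1. The libraries differed within groups: shLAMP5 2 had the lowest value of the 6 for 44.1% of the 13072 genes tested and a median scaling factor of 0.839, against 0.998 to 1.06 in the others. The plot of log2 fold changes therefore also marks the values fitted without it.

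None of the 36 genes passed an adjusted p of 0.05 with limma, and none of all genes tested did (0% called). No listed gene reached an unadjusted p under 0.05 either, where 8.97% of all genes did so, 3.72% with higher and 5.25% with lower values in shLAMP5. Most differences were nonetheless upward. Of the 36, 27 had a positive log2 fold change and 9 a negative one, with a median of 0.22, while 49.3% of all genes were positive and their median was -0.0060. The receptor chains lay highest, with 14 of 16 positive and a median of 0.43. The kinases and STATs had 5 of 7 positive (median 0.20), and the brakes 8 of 13 (median 0.021). PTPN11 was counted with the brakes, though it promotes growth signals. For 3 genes, IL10RA, IFNGR1 and IL21R, each shLAMP5 library exceeded both controls (8.25% of all genes did so), and for none did each lie below them (13.5% of all genes). A share of 3 in 36 is near that background.

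**Figure D1:**
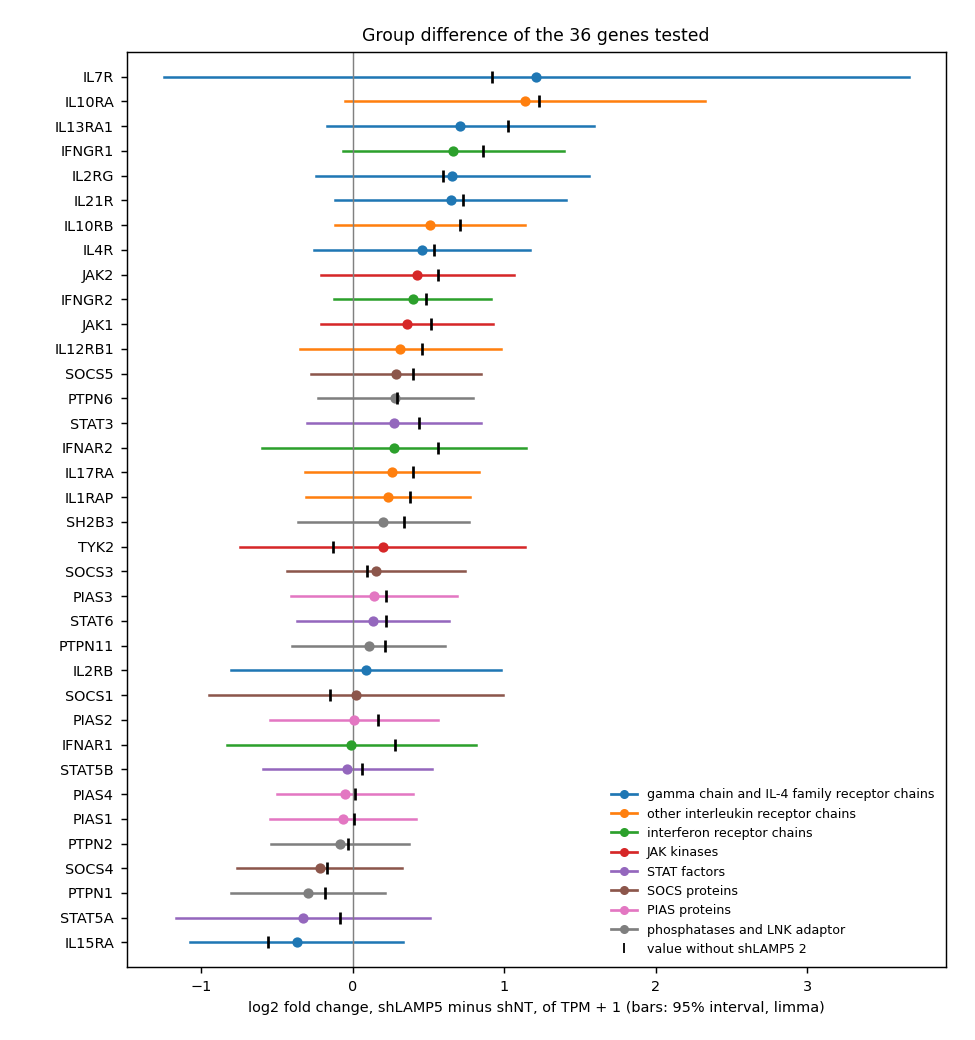
Log2 fold change of TPM + 1, shLAMP5 (4 libraries) minus shNT (2 libraries), for the 36 genes tested, coloured by role, with limma's 95% interval as bars and the value without shLAMP5 2 as a black tick (absent for IL2RB, which then failed the expression filter). Every interval crosses 0, and receptor chains fill the top 8 places.

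Of the alternatives run, leaving out shLAMP5 2 moved the counts of listed genes at an unadjusted p under 0.05 and of listed genes with separate groups the furthest. Without it, 8 listed genes reached an unadjusted limma p under 0.05 with higher values (IFNAR2, IFNGR1, IFNGR2, IL10RB, IL13RA1, IL1RAP, JAK1 and STAT3) and 1, IL15RA, with a lower value, of 35 tested, beside 10.6% and 7.02% of all genes. The smallest adjusted p among them was 0.104. The remaining shLAMP5 libraries then exceeded both controls for 17 listed genes and lay below them for 1, beside 22.5% and 17.1% of all genes, and the median log2 fold change was 0.34. Median scaling of the 6 libraries gave 10 listed genes above and none below (12% and 13.7% of all genes), and 3 at an unadjusted p under 0.05, all higher (IFNGR1, IL10RB and IL13RA1; 5.58% of all genes were higher and 6.31% lower).

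Among the receptors of the common gamma chain, IL7R had the largest residual spread of the 36 tested genes. IL7R encodes the alpha chain of the IL-7 receptor, best known from lymphoid progenitors and T cells. It measured 71.5 and 11.3 TPM in shNT 1 and 2, and 19.8, 126, 254 and 32.9 TPM in shLAMP5 1 to 4. The shNT libraries were 6.34-fold apart and the shLAMP5 libraries 12.8-fold, and with all 6 libraries kept the groups overlapped. Its residual SD on the log2 scale, 1.71, was larger than that of 99.8% of the genes tested, where the median gene had 0.294. Its log2 fold change was 1.21 (95% interval -1.25 to 3.67, limma adjusted p 0.770), and it became -0.070 without shNT 2 and 2.49 without shNT 1. The sign thus turned with the choice of control library.

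IL2RG, the common gamma chain shared by the receptors of IL-2, IL-4, IL-7, IL-15 and IL-21, measured 36.2 and 16.2 TPM in the controls and 26.2, 44.3, 57.9 and 33.8 TPM after knockdown. shNT 2 was the lowest library and shLAMP5 3 the highest, as for IL7R. The difference was 0.66 on the log2 scale (adjusted p 0.650), or 0.10 without shNT 2 and 1.21 without shNT 1. The remaining IL-2 receptor chains were scarce. IL2RA, the alpha chain of the high-affinity receptor, ranged from 0.0295 to 1.61 TPM and was not tested. IL2RB, the signalling beta chain, ranged from 0.346 to 2.06 TPM and had a log2 fold change of 0.087, or -0.023 under quantile normalization. For IL7R, IL2RG, IL2RB, SOCS1 and TYK2 of the 36 tested genes (13.9%), shNT 1, shLAMP5 2 and shLAMP5 3 held the 3 highest values, an order seen in 8.54% of all genes tested. The untested IL2RA and JAK3 had the same order. It was picked with the values of listed genes known, so setting the shares side by side is no test. These 3 libraries come from both groups. The summed T and NK cell markers were 101 and 67.1 TPM in shNT 1 and 2 and 113, 115, 196 and 106 TPM in shLAMP5 1 to 4, nearly all of it NKG7 and GNLY, while CD3E did not exceed 0.0489 TPM. Their part in the order of the libraries was not tested.

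IL4R, IL13RA1 and IL2RG together make the receptors for IL-4 and IL-13. IL4R measured 19.2 and 15.1 TPM in shNT and 18.7, 19.9, 38.7 and 21.9 TPM in shLAMP5 1 to 4, so that shLAMP5 3 alone stood high. Its log2 fold change was 0.46 (adjusted p 0.684), and 0.23 without shLAMP5 3. IL13RA1 measured 15.9 and 17.9 TPM in shNT and 33.6, 14.1, 36.6 and 35.9 TPM in shLAMP5 1 to 4. Here 3 shLAMP5 libraries were close together at about the same level and shLAMP5 2 lay below both controls. The log2 fold change of 0.71 (SE 0.38, adjusted p 0.611) became 1.03 without shLAMP5 2. IL21R, the IL-21 receptor, measured 8.25 and 8.26 TPM in shNT and 10.2, 11.2, 24.0 and 11.8 TPM in shLAMP5, so the groups did not overlap. Its log2 fold change was 0.65 (SE 0.33, adjusted p 0.598), and 0.38 without shLAMP5 3. IL15RA, which presents IL-15 to neighbouring cells, was, besides IFNAR1, the 1 receptor chain with a negative value. It measured 7.06 and 5.58 TPM in shNT and 4.01, 7.32, 3.00 and 5.02 TPM in shLAMP5, with a log2 fold change of -0.37 (adjusted p 0.745), or -0.56 without shLAMP5 2 and -0.21 without shLAMP5 3. shLAMP5 2 was its highest library and shLAMP5 3 its lowest. Of the 36 tested genes, 12 had these extremes the other way round, a count not made over all genes.

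**Figure D2:**
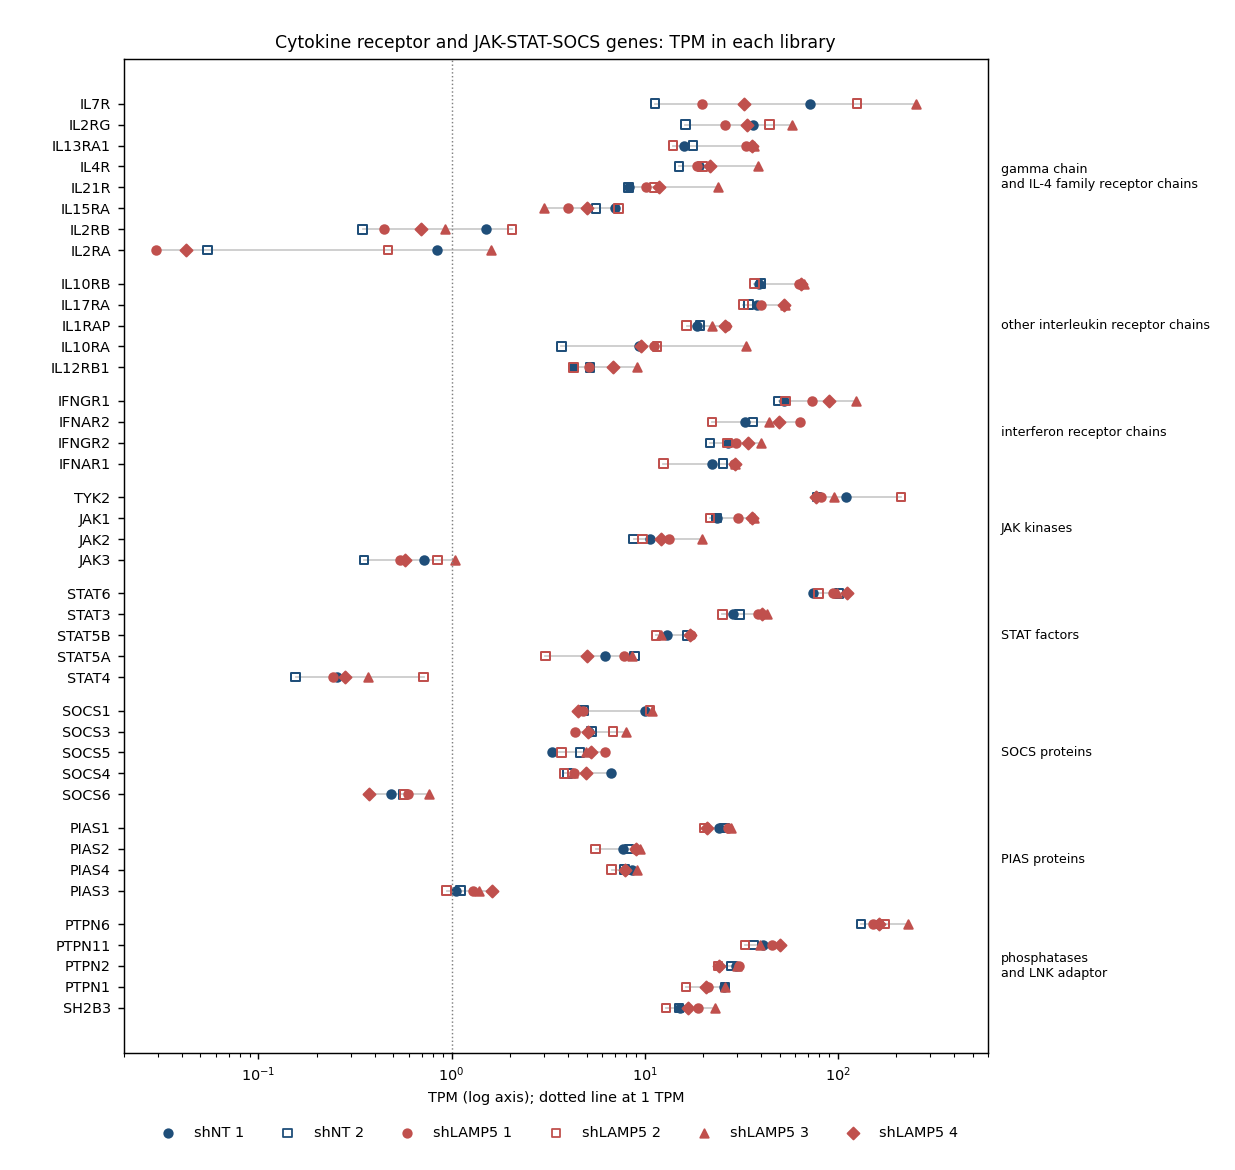
TPM on a log axis of the 40 genes with a row, 1 point per library (blue shNT, red shLAMP5), grouped by role and ordered by mean, with a grey line over the range. IL7R ran from 11.3 to 254 TPM, and IL2RA, JAK3, STAT4 and SOCS6 stayed near or below the dotted line at 1 TPM.

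IL10RA, the ligand-binding chain of the IL-10 receptor, had the smallest p of the list. It measured 9.37 and 3.71 TPM in shNT and 11.1, 11.6, 33.4 and 9.59 TPM in shLAMP5 1 to 4. All shLAMP5 libraries lay above both controls, shLAMP5 4 only just above shNT 1. Under median scaling and under quantile normalization the groups overlapped. A log2 fold change of 1.14 was fitted (SE 0.51, 95% interval -0.053 to 2.32, limma p 0.0586 before and 0.566 after adjustment), and it ranged from 0.57 without shNT 2 to 1.71 without shNT 1. Its partner IL10RB, shared with other receptors of the class, measured 38.9 and 40.0 TPM in shNT and 63.2, 37.0, 67.1 and 64.7 TPM in shLAMP5. As for IL13RA1, shLAMP5 2 lay with the controls in TPM and the other 3 well above them. Under median scaling and under quantile normalization, IL10RB exceeded both controls in every shLAMP5 library. The log2 fold change of 0.51 (adjusted p 0.610) became 0.71 without shLAMP5 2. IL10RB exceeded IL10RA in every library, and IL10RA reached between 0.0928 and 0.498 of the IL10RB level. A read-through transcript of IFNAR2 and IL10RB is annotated, so reads of these neighbours may be shared between them.

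IL17RA, the common chain of IL-17 receptors, and IL1RAP, the accessory chain of IL-1 and IL-33 receptors and a surface antigen of leukaemic stem cells, had smaller differences. IL17RA measured 38.4 and 34.5 TPM in shNT and 39.9, 32.5, 53.5 and 52.7 TPM in shLAMP5 (log2 fold change 0.26, adjusted p 0.792; 0.40 without shLAMP5 2 and 0.16 without shLAMP5 3). IL1RAP measured 18.7 and 19.3 TPM in shNT and 26.4, 16.5, 22.4 and 26.0 TPM in shLAMP5 (0.23, adjusted p 0.799; 0.37 without shLAMP5 2). In both, shLAMP5 2 was the lowest library of all 6 in TPM. Under median scaling and under quantile normalization, every shLAMP5 library exceeded both controls for IL1RAP, while for IL17RA the groups overlapped. IL12RB1, a chain of the IL-12 and IL-23 receptors, stayed between 4.28 and 9.17 TPM (0.31, and 0.14 without shLAMP5 3).

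Of the interferon receptors, the chains of the type II receptor had log2 fold changes of 0.66 and 0.40 and those of the type I receptor -0.0092 and 0.27, a contrast that was not tested. IFNGR1, which binds interferon gamma, measured 52.8 and 49.4 TPM in shNT and 73.2, 53.7, 124 and 89.6 TPM in shLAMP5. The groups did not overlap, though shLAMP5 2 came close to shNT 1. The 95% interval ran from -0.067 to 1.39 (SE 0.32, adjusted p 0.583), and the value from 0.46 without shLAMP5 3 to 0.86 without shLAMP5 2. IFNGR2, its signalling partner, measured 27.1 and 21.8 TPM in shNT and 29.6, 26.8, 40.2 and 34.2 TPM in shLAMP5 (0.40, adjusted p 0.629; 0.24 without shNT 2). IFNGR1 exceeded IFNGR2 in 6 of 6 libraries, by 1.95-fold to 3.09-fold. IFNAR1, the first chain of the type I interferon receptor, measured 22.3 and 25.5 TPM in shNT and 29.0, 12.5, 29.4 and 29.3 TPM in shLAMP5. Apart from shLAMP5 2 the knockdown libraries were nearly equal, all above the controls. Its log2 fold change of -0.0092 (adjusted p 0.997) was 0.28 without shLAMP5 2, and slightly positive under median scaling (0.022) and quantile normalization (0.015). IFNAR2 measured 33.2 and 36.5 TPM in shNT and 63.9, 22.3, 44.0 and 49.9 TPM in shLAMP5 (0.27, adjusted p 0.866; 0.57 without shLAMP5 2 and 0.073 without shLAMP5 1). The ratio of IFNAR1 to IFNAR2 was 0.671 and 0.700 in shNT and 0.453, 0.560, 0.667 and 0.586 in shLAMP5, so that the groups did not overlap, though only just for shLAMP5 3. This ratio was 1 of 11 computed and has no test.

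**Figure D3:**
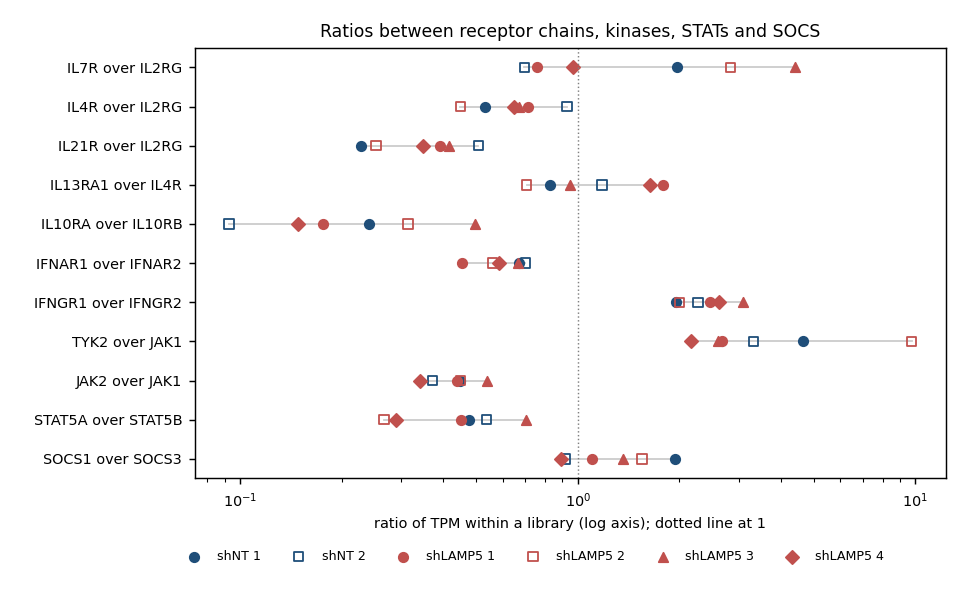
Ratio of TPM between partner chains or related genes within each library, on a log axis (blue shNT, red shLAMP5, dotted line at 1). IL7R over IL2RG ran from 0.695 in shNT 2 to 4.39 in shLAMP5 3, and TYK2 over JAK1 reached 9.75 in shLAMP5 2 against 2.16 to 4.64 in the other libraries.

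The kinases had the same order in every library, TYK2 over JAK1 over JAK2 over JAK3, with means of 109, 28.7, 12.4 and 0.679 TPM. TYK2, which serves interferon, IL-10 and IL-12 receptors, measured 110 and 78.0 TPM in shNT and 81.6, 212, 95.7 and 77.5 TPM in shLAMP5. shLAMP5 2 stood alone, and the log2 fold change of 0.20 (adjusted p 0.915) became -0.13 without it. JAK1, the partner of most receptors above, measured 23.8 and 23.5 TPM in shNT and 30.4, 21.8, 36.8 and 35.9 TPM in shLAMP5. In contrast to TYK2, shLAMP5 2 was its lowest library in TPM. Under median scaling and under quantile normalization, though, every shLAMP5 library exceeded both controls for JAK1. JAK1 had a log2 fold change of 0.36 (adjusted p 0.690), and 0.51 without shLAMP5 2. JAK2, the kinase of IL-3 family and interferon gamma receptors, measured 10.7 and 8.76 TPM in shNT and 13.4, 9.76, 19.8 and 12.2 TPM in shLAMP5 (0.43, adjusted p 0.677; 0.25 without shLAMP5 3). JAK3, which pairs with IL2RG, ranged from 0.352 to 1.04 TPM and was not tested, while IL2RG itself measured at least 16.2 TPM.

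The STATs were also ordered alike in all 6 libraries, STAT6 first (mean 93.3 TPM), then STAT3 (34.6), STAT5B (14.7), STAT5A (6.60) and STAT4 (0.337 TPM, not tested). STAT6, the factor of IL-4 and IL-13, measured 74.2 and 102 TPM in shNT and 94.5, 79.7, 98.9 and 111 TPM in shLAMP5 (log2 fold change 0.13, adjusted p 0.888; -0.093 without shNT 1). Its values varied little, 1.39-fold across the shLAMP5 libraries. STAT3, which serves IL-10 and IL-21 among others, measured 28.7 and 31.0 TPM in shNT and 38.8, 25.3, 42.9 and 40.8 TPM in shLAMP5 (0.27, adjusted p 0.779; 0.44 without shLAMP5 2). STAT5A measured 6.25 and 8.86 TPM in shNT and 7.79, 3.06, 8.6 and 5.0 TPM in shLAMP5 (-0.33, adjusted p 0.819; -0.085 without shLAMP5 2 and -0.55 without shNT 1). STAT5B measured 13.1 and 16.5 TPM in shNT and 17.3, 11.5, 12.2 and 17.2 TPM in shLAMP5 (-0.038, adjusted p 0.977). STAT5A and STAT5B are near-identical over much of their length, and reads may be split between them.

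The SOCS genes of the list were low and differed little between the groups. SOCS2 and CISH, of the same family but outside the list, averaged 53.7 and 24.6 TPM over the libraries. SOCS1, which blocks JAK activity after interferon signals, measured 10.0 and 4.87 TPM in shNT and 4.78, 10.7, 10.9 and 4.53 TPM in shLAMP5. The values lay at about 2 levels, and each group held both. Its log2 fold change was 0.021 (95% interval -0.95 to 0.99, adjusted p 0.993), from -0.43 without shNT 2 to 0.48 without shNT 1. SOCS3, the brake of gp130 receptors and STAT3, was steadier, with 5.16 and 5.30 TPM in shNT and 4.35, 6.86, 7.98 and 5.09 TPM in shLAMP5 (0.15, adjusted p 0.889; 0.027 without shLAMP5 3). SOCS4 ranged from 3.81 to 6.72 TPM (-0.22) and SOCS5 from 3.30 to 6.27 TPM (0.28, and 0.089 without shNT 1), neither past the test, and SOCS6 stayed between 0.376 and 0.762 TPM and was not tested. No SOCS gene of the list reached a mean of 10 TPM, where 25 of the 40 genes did.

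The PIAS genes and phosphatases varied little. PIAS1, a SUMO ligase that restrains STATs, measured 24.3 and 25.9 TPM in shNT and 26.9, 20.4, 28.1 and 21.1 TPM in shLAMP5 (log2 fold change -0.065, 95% interval -0.55 to 0.42). PIAS2 (0.0088; negative under quantile normalization), PIAS4 (-0.050) and PIAS3 (0.14; 0.22 without shLAMP5 2 and 0.076 without shLAMP5 4) lay between 0.943 and 9.46 TPM. PTPN6 (SHP-1), the phosphatase of blood cells that damps JAKs, had the highest mean of the list, though TYK2 exceeded it in shLAMP5 2 and IL7R in shLAMP5 3. It measured 163 and 132 TPM in shNT and 152, 175, 231 and 163 TPM in shLAMP5 (0.28, adjusted p 0.733; 0.13 without shNT 2 and 0.43 without shNT 1). PTPN11 (SHP-2), which in contrast promotes growth signals, measured 40.8 and 36.6 TPM in shNT and 45.4, 33.1, 39.6 and 50.4 TPM in shLAMP5 (0.10, adjusted p 0.915; 0.21 without shLAMP5 2 and 0.015 without shLAMP5 4). PTPN1, which acts on JAK2 and TYK2, was the brake with the most negative value, at 25.6 and 26.0 TPM in shNT and 21.2, 16.4, 26.2 and 20.7 TPM in shLAMP5 (-0.30, adjusted p 0.714; -0.19 without shLAMP5 2). PTPN2, which acts on JAK1 and JAK3, measured 29.6 and 28.1 TPM in shNT and 30.9, 24.0, 30.1 and 24.3 TPM in shLAMP5 (-0.087, and -0.030 without shLAMP5 2). SH2B3 (LNK), the adaptor that restrains JAK2, measured 15.2 and 15.1 TPM in shNT and 18.8, 12.9, 23.1 and 16.9 TPM in shLAMP5 (0.20, adjusted p 0.836; 0.34 without shLAMP5 2 and 0.076 without shLAMP5 3). PTPN2, PTPN11 and SOCS5 have pseudogenes that may take or give reads.

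**Figure D4:**
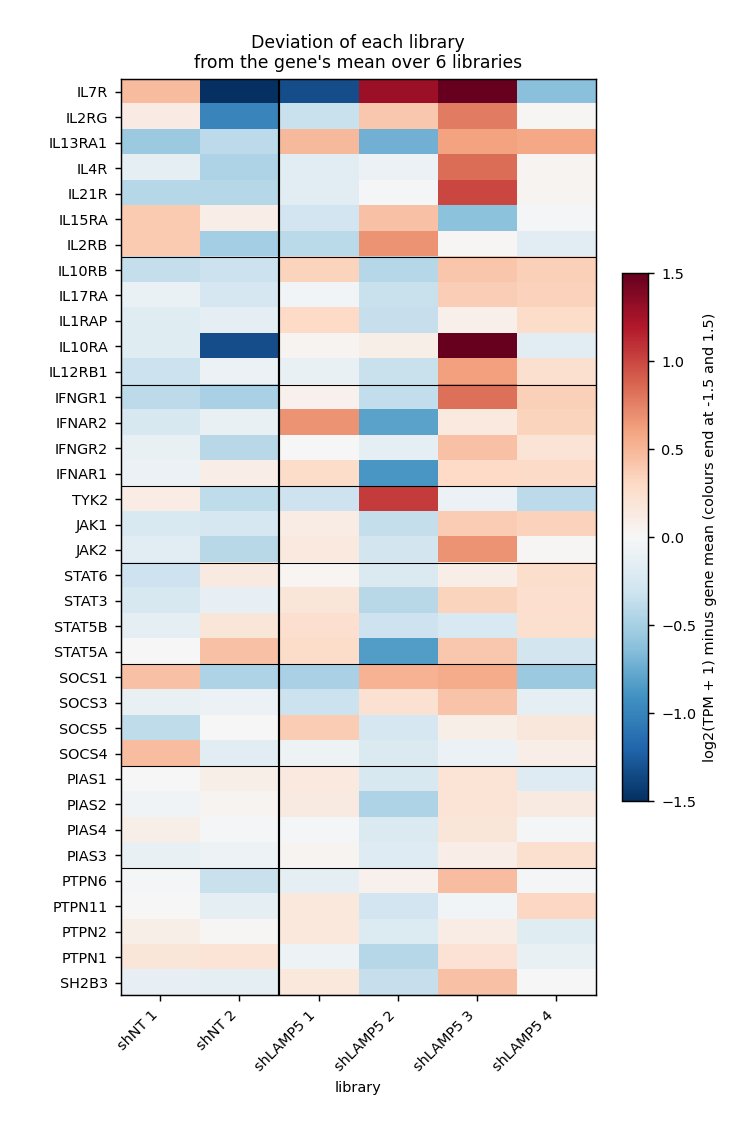
Deviation of each library from the gene's mean over all 6 on the log2(TPM + 1) scale (red higher, blue lower; colours end at -1.5 and 1.5) for the 36 genes tested, by role, with shNT left of the vertical line. shLAMP5 3 was the highest library for 23 genes and shLAMP5 2 the lowest for 20.

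Libraries of 1 group often differed as much as the groups did. For 17 of the 36 genes the 2 shNT libraries lay further apart on the log2 scale than the group means did. The same count was not made over all genes. A gap between 2 single libraries tends to exceed one between group means even with no group effect, so no conclusion is drawn from this count. shLAMP5 3 held the highest value for 23 of the 36 genes (63.9%, against 25.4% of all genes tested), and shLAMP5 2 the lowest for 20 (55.6%, against 44.1%). The median residual SD of the list, 0.297, was near that of all genes, 0.294. Of the 8 myeloid markers, 4 (SPI1, CEBPA, CSF1R and ITGAM) were also highest in shLAMP5 3. CSF1R, a monocyte receptor, measured 79.7 TPM there against 8.33 to 24.9 TPM in the other libraries. LYZ and FLT3 were highest in shLAMP5 1, CD33 in shLAMP5 4 and MPO in shNT 2, and these 4 were lowest in shLAMP5 2. The summed markers, mostly LYZ, were 2510 and 6600 TPM in shNT 1 and 2 and 10300, 1880, 6030 and 10100 TPM in shLAMP5 1 to 4. Their part in the receptor values was not tested. In RNA of whole cultures, more cells of a kind and more RNA per cell cannot be told apart.

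Other genes of the pathway were given by lists drawn up beside the 41, also with earlier results of these data known. Of 9 other receptor chains tested of 31, 8 had positive values (median 0.20), beside 49.3% of all genes. An unadjusted p under 0.05 was reached by 1 of them, beside 8.97% of all genes. This was IL6ST (gp130, the shared chain of IL-6 type receptors), at 1.72 and 1.44 TPM in shNT and 3.34, 1.88, 5.23 and 4.90 TPM in shLAMP5, with 0.84 on the log2 scale (limma p 0.0364, adjusted p 0.534). IL11RA had 0.49 and EPOR, the 1 negative chain, -0.19. Of 25 ligands only 6 were tested, 5 with positive values and none at an unadjusted p under 0.05. Their median was 0.42, from 0.14 without shNT 2 to 0.62 without shNT 1, and 0.026 with no filter on low values. IL1B, an inflammatory cytokine of monocytes, measured 10.0 and 1.29 TPM in shNT and 4.82, 10.9, 14.2 and 8.56 TPM in shLAMP5 (0.99, adjusted p 0.657). IL18 had 0.43 and IL12A -0.22. The ligands IL2, IL4, IL17A, IL21, IL22 and IFNG were listed at 0 in every library, and IL7 did not exceed 0.0490 TPM.

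Of 12 further JAK-STAT components tested of 13, 10 had positive values (median 0.22), beside 49.3% of all genes. At an unadjusted p under 0.05 there were 2, both higher, and none passed adjustment. Of all genes 8.97% reached it in either direction, and 3.72% with higher values. STAT2, of the type I interferon complex, measured 31.7 and 22.7 TPM in shNT and 37.1, 37.5, 55.8 and 50.3 TPM in shLAMP5 (difference of 0.71, limma p 0.0226, adjusted p 0.520). PTPRC (CD45), a receptor phosphatase of white blood cells, measured 26.0 and 20.2 TPM in shNT and 36.1, 27.7, 63.1 and 42.4 TPM in shLAMP5 (0.79, limma p 0.0380, adjusted p 0.541). For both, each shLAMP5 library exceeded both controls, which held for 8.25% of all genes. SOCS2 (-0.049) and STAM (-0.039) were the 2 negative components. CISH, whose promoter stretch is printed above, measured 22.3 and 21.8 TPM in shNT and 29.2, 19.2, 28.4 and 26.5 TPM in shLAMP5.

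Of 20 STAT target genes tested of 24, 14 had positive values (median 0.21, and 0.020 without shNT 2), beside 49.3% of all genes. The list shares CISH and SOCS2 with the further components, and OSM with the ligands, so these counts are not independent. An unadjusted p under 0.05 was reached by 1 of them, beside 8.97% of all genes. This was FCGR1A (CD64), an Fc receptor induced by interferon gamma, at 34.4 and 31.7 TPM in shNT and 56.5, 40.8, 67.2 and 64.4 TPM in shLAMP5 (difference of 0.75, limma p 0.0145, adjusted p 0.505). ICAM1, an adhesion molecule, had 0.65, MYC -0.43 and CXCL10, an interferon-induced chemokine, -1.08. For CXCL10 shNT 1 stood apart, at 11.9 TPM against 0.0985 to 3.32 TPM in the other libraries. FCER2 measured 27.3 and 5.26 TPM in shNT and 6.66, 20.5, 49.6 and 20.4 TPM in shLAMP5, with the same highest and lowest library as IL7R.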

How the data were processed

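RNA of 6 MOLM-13 libraries was compared, 2 shNT and 4 shLAMP5, grouped by title. The deposited table names no unit; its values were taken as TPM, since they are not whole numbers and the library totals lie from 897026 to 912565. For the TPM values that the authors deposited, the submitters' processing notes name kallisto and hg19; versions, transcript set and filters were not given in the sources used here. Read depth cannot be had from TPM, so no counting interval was computed. Of 39771 identifiers, 29895 were matched to a symbol.

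limma 3.58.1 (R 4.3.3) with a mean-variance trend was fitted on log2(TPM + 1) for the 13072 genes that reached 1 TPM in 2 or more libraries, with Benjamini-Hochberg adjustment over all of them and a threshold of 0.05. The fit was tested on simulated data. Tables were made with numpy 2.4.6 and pandas 2.3.3 in Python 3.11.15, figures with matplotlib 3.10.9. Alternatives were other pseudocounts, filters and scalings, each library left out, and a replicate block.

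The genes and lists were chosen with earlier results of these data known. All 41 genes are named, with LAMP5 and, from each other list, the 2 genes of smallest p per direction; CISH, IRF9, FCER2, the ligands at or near 0 and CSF1R were named after their values were seen. Sequences are from RefSeq (GRCh38.p14), another build than hg19.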

Additional observations from a re-analysis of the deposited data

Results flagged for a closer look

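In 8 of the 36 genes tested, 1 of the 4 shLAMP5 libraries lay apart from the other 3 by more than Dixon's critical value for a group of 4 (gap over whole range); chance alone marks about 1 in 20 groups. Of all 13072 genes tested, 7.45% had such a library, against 22.2% of the listed genes; it was shLAMP5 2 for 4.9% of all genes and shLAMP5 3 for 1.76%. Among the listed genes it was shLAMP5 2 in 5. IFNAR1 measured 12.5 TPM there against 29.0 to 29.4 TPM, IL10RB 37.0 against 63.2 to 67.1, IL13RA1 14.1 against 33.6 to 36.6 and PIAS2 5.57 against 8.93 to 9.46, all low, while TYK2 was high at 212 against 77.5 to 95.7 TPM. In the other 3 it was shLAMP5 3, which was high for IL10RA (33.4 TPM against 9.59 to 11.6), IL21R (24.0 against 10.2 to 11.8) and IL4R (38.7 against 18.7 to 21.9).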

How the results depend on the processing

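No listed gene passed an adjusted p of 0.05 under any alternative; 426 of 456 single-gene values kept their sign and side of the threshold, and 30 values, of 13 genes, changed sign. Over all genes, 14 passed with no filter on low values (1761 at an unadjusted p under 0.05). Unadjusted calls ranged from 408 to 2248 with 1 library left out, or 3.15% to 17.6% of genes, and those of listed genes from 0 to 9. Listed genes with separate groups then ranged from 3 to 18, while 9.01% to 22.5% of all genes lay above and 15.9% to 25.6% below; without shNT 1 it was 9 above and 1 below, beside 18.4% and 25.6%. Under median scaling 3 listed genes reached an unadjusted p under 0.05 (11.9% of all genes) and 10 had separate groups, all above (12% of all genes above, 13.7% below). Under quantile normalization these were 2 (10.9%) and 7, all above (9.6% above, 14.7% below). The median of other receptor chains was 0.29 at a pseudocount of 0.1, 0.053 with no filter and 0.17 to 0.36 with 1 library left out; that of further JAK-STAT components was 0.36 at a minimum of 10 TPM and 0.14 to 0.42 with 1 library left out. The causes were not tested.

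Sign changes: IFNAR1 was 0.0032 at a pseudocount of 5, 0.022 under median scaling and 0.015 under quantile normalization, where IL2RB was -0.023 and PIAS2 -0.012. With 1 library left out, log2 fold changes ran from -0.11 to 0.28 for IFNAR1, -0.36 to 0.23 for IL2RB, -0.070 to 2.49 for IL7R, -0.14 to 0.0064 for PIAS1, -0.059 to 0.16 for PIAS2, -0.11 to 0.016 for PIAS4, -0.43 to 0.48 for SOCS1, -0.54 to 0.096 for SOCS4, -0.19 to 0.12 for STAT5B, -0.093 to 0.36 for STAT6 and -0.13 to 0.44 for TYK2.

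Libraries with the same number share only that number: deviations from the group means correlated at -0.52 and -0.474 across genes for numbers 1 and 2. With the replicate block, 16 genes passed (282 unadjusted), none of them listed. Numbers held only by shLAMP5 libraries add nothing to the fold changes of this fit, which rest on libraries 1 and 2 of each group. It had 1 residual degree of freedom. Differences from the main fit therefore cannot be put down to the block alone. In the block fit, positive values numbered 23 of 36 listed genes (42.4% of all genes) and the list's median was 0.063 (all genes -0.067). The medians of other receptor chains and further components were 0.40 and 0.11, and IL12RB1 was -0.012, IL17RA -0.015, PIAS2 -0.16 and STAT6 -0.0017.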
